A study of Mus musculus with 5 samples.

Results

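The genes described here encode TSG-6, a secreted hyaluronan-binding protein, and proteins that make, cut, bind or modify the hyaluronan matrix: Tnfaip6 (which encodes TSG-6), Has1, Has2, Cd44, Tmem2, Hmmr, Hyal2, Ptx3 and Itih5. They were taken by symbol, and all 9 were found among the 12621 genes of the count table. The table held RNA sequencing values of mouse mesenchymal stem cells, the adherent stromal cells that can form bone, fat and cartilage. There were 2 libraries of wild-type cells and 3 of cells in which TSG-6 was knocked out. Every sample of both genotypes carried the strain label Balb/c (C.129S6). The label does not show whether the genotypes have the same DNA around Tnfaip6. The labels name no tissue of origin, age, passage, treatment or deleted exon. By the design text each cell type had 2 biological replicates. The knockout had 3 libraries, so some of them may share a replicate, and which ones is not stated. The wild-type columns are named C1 and SE, the knockout columns C1, C2 and SE, and what the suffixes stand for is not given. Since it is not stated that libraries stem from different animals or cultures, p-values cover only the spread among these libraries, which may be technical.

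Hyaluronan is a long, unsulfated sugar polymer that synthases at the plasma membrane extrude directly into the space around the cell. TSG-6, induced by tumour necrosis factor and interleukin-1, moves the heavy chains of inter-alpha-trypsin inhibitor onto hyaluronan, and the pentraxin PTX3 joins such chains into a cross-linked matrix, best known from the expanding cumulus around the oocyte. Cells hold the polymer through CD44, and hyaluronidases at the surface cut it into fragments. In mesenchymal stem cells, TSG-6 is known as a secreted factor that dampens inflammation.

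Of the 9 genes, 2 were higher and 3 were lower in knockout libraries at an adjusted p under 0.05, and 4 did not pass (limma on log2 of the normalised count plus 0.5, Benjamini-Hochberg over 12484 genes). Over all genes tested, 34.3% were called, 17.2% higher and 17.1% lower. These shares are also the background for the counts of listed and marker genes given below. Ptx3 and Itih5 rose, Has1, Cd44 and Hmmr fell, and Tnfaip6, Has2, Tmem2 and Hyal2 were not called. All 9 passed the filter on low values, but Has1 passed it through the wild type alone and Itih5 through the knockout alone, so these 2 had to differ. The knockout and wild-type values did not overlap for 7 of the 9 genes, against 58.8% of all genes tested. The knockout was the higher one for 2 of these 7 (28% of all genes tested) and the lower one for 5 (30.7%). The median absolute log2 fold change was 1.54 over the 9 genes and 0.71 over all genes tested. Since the 9 genes were chosen with earlier results of these data known, these comparisons with all genes describe the set and test nothing. Normalised counts below are on the scale of CPM (reads scaled to a common library total) and are given as mean ± SD over n = 2 wild-type and n = 3 knockout libraries.

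**Figure D1:**
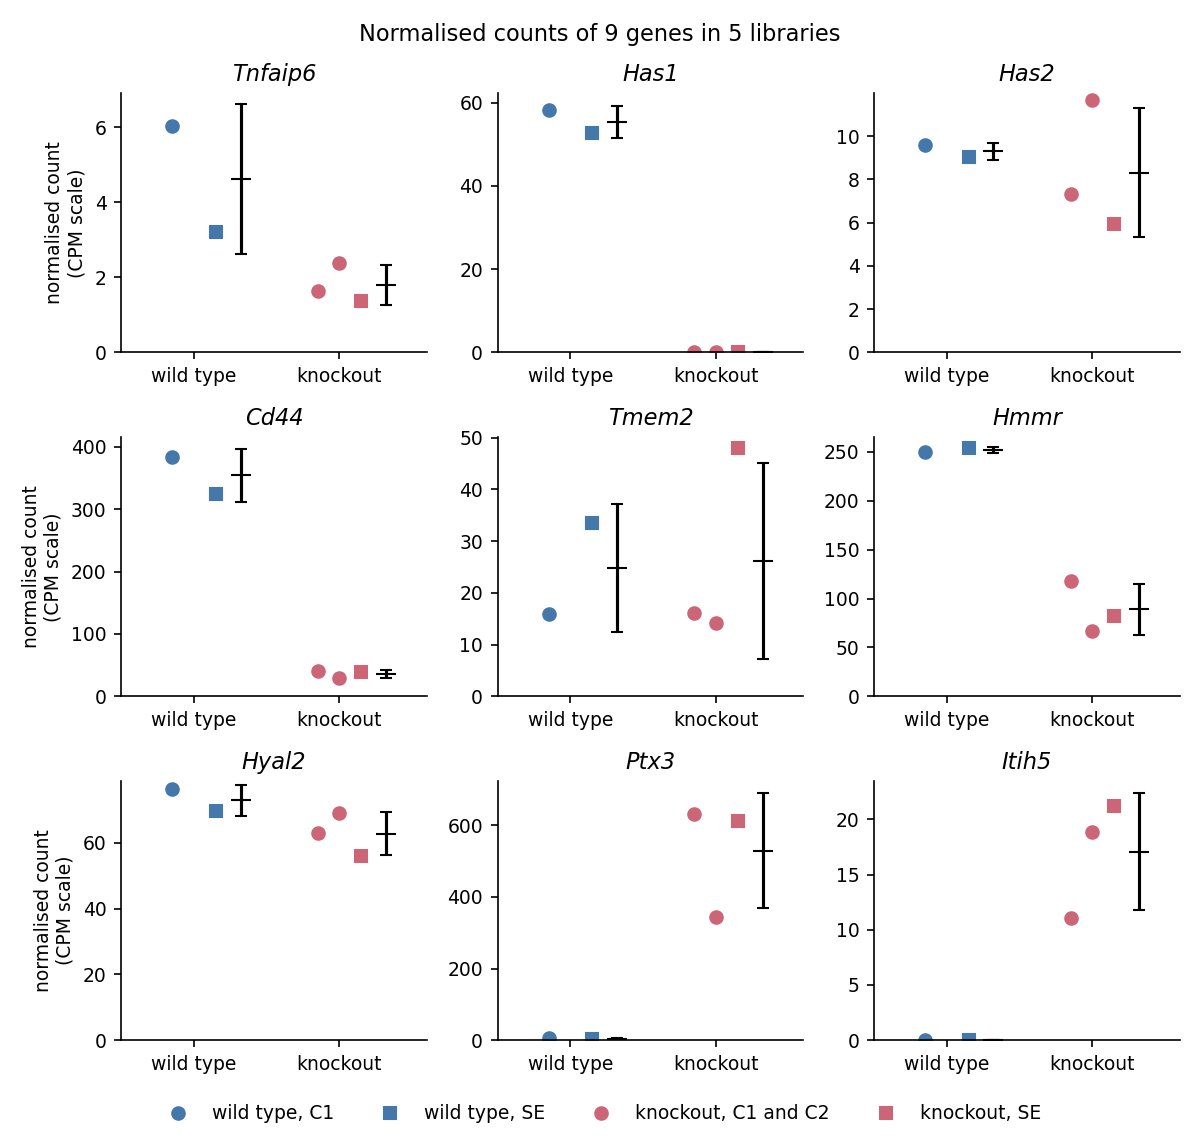
Normalised count (CPM scale, linear axis from 0) of each gene in every library, with wild type in blue and knockout in red, circles for C libraries and squares for SE libraries, and the group mean ± SD in black. Ptx3 and Itih5 were at or near 0 in the wild type, Has1 at or near 0 in the knockout, and Tmem2 was highest in the SE library of each genotype.

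Libraries held between 13605555 and 26658725 reads assigned to genes. Markers of the labelled cell type were mixed: of 10 stromal markers, 9 were in the table, and Vim, Itgb1, Eng, Pdgfra and Pdgfrb were read in every library, while Nt5e, which passed the filter through the wild type alone, and Ly6a were lower in the knockout (limma adjusted p = 0.000112 and 0.00262) and Col1a1 and Col1a2 higher (0.0166 and 0.00355). Thy1 was not analysed here. Summed normalised counts of 5 adipocyte markers ran from 8.44 to 17.1 in the wild type and from 631 to 1852 in the knockout, with 5 of 5 called higher, of which Adipoq, Plin1 and Cidec passed the filter through the knockout alone. For 5 smooth muscle markers the sums ran from 49.4 to 65.5 and from 3133 to 6649, also with 5 of 5 higher, of which Tagln, Des and Actg2 passed through the knockout alone. The 3 mesothelial and epithelial markers in the table summed to between 321 and 368 in the wild type and between 2.51 and 5.88 in the knockout, with 3 of 3 lower, of which Msln and Krt18 passed through the wild type alone, and Krt18 was at 0 reads in every knockout library. Of 8 macrophage and blood markers, 4 were in the table, with sums from 66.9 to 94.4 in the wild type and from 50.1 to 59.1 in the knockout. Most of the wild-type sum was Cd14, which was called lower, and without it the other 3 markers summed to between 3.11 and 5.19 in the wild type and between 38.8 and 46.8 in the knockout. Of these, Lyz2 and Csf1r were called higher, and both passed through the knockout alone, so they had to differ. Lyz2 made up most of this knockout sum, with 34.2, 24.4 and 32.2 in knockout C1, C2 and SE. The higher sum without Cd14 is therefore no separate result, and Cd68 was not called (limma adjusted p = 0.686). None of 6 endothelial markers was among the genes analysed here. The part of these shifts in the results below was not tested, and in bulk RNA fewer cells of a type and less RNA per cell cannot be told apart.

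Tnfaip6, the targeted gene (ENSMUSG00000053475, GRCm38 chromosome 2, 52038009 to 52056686, plus strand, 6 exons), was read in every library, the knockout included. The wild-type libraries C1 and SE had normalised counts of 6.04 and 3.21 (149 and 62 reads). The knockout libraries C1, C2 and SE had 1.65, 2.38 and 1.36 (35, 63 and 19 reads). The knockout values all lay below the wild-type values, and the closest pair was wild-type SE and knockout C2, whose exact 95% counting intervals overlapped (2.46 to 4.12 and 1.83 to 3.05). The knockout mean was 38.8% of the wild-type mean, with a log2 fold change of -1.13 (SE 0.37, 95% interval -2.02 to -0.23), which missed the threshold (limma adjusted p = 0.0578). Within the C libraries the log2 differences were -1.61 for knockout C1 and -1.18 for knockout C2, and between the SE libraries the difference was -0.996. In the fit that also held the suffix as a block, the gene was called (log2 fold change -1.22, limma adjusted p = 0.00943). That fit called 6 of the 9 genes, 2 higher and 4 lower, against 60.6% of all genes tested, 28.3% higher and 32.3% lower. The wild-type mean was 2.57 times the knockout mean, and 1.79 times it when wild-type C1 was left out. Among all genes tested, 31.0% had a larger absolute change. Reads were counted over the gene as a whole, so the values do not show which exons the remaining transcripts held.

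The 146 bases before the annotated start of Tnfaip6 are shown because the gene is the target and is known to be induced by inflammatory signals (RefSeq, GRCm38.p6, chr2:52037863-52038008, plus strand, 5′ to 3′).
Tnfaip6: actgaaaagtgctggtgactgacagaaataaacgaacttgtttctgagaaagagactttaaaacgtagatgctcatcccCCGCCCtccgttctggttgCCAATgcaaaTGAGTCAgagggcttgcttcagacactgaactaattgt
Capitals mark matches to 7 short motifs searched on both strands over the 300 bases from 250 before to 50 after the start: AP-1 (letters TGANTCA), the cyclic AMP response element CRE (letters TGACGTCA), the NF-kB consensus, the GC box (letters GGGCGG), the CCAAT box, the TATAAA box and the cell-cycle element CHR (letters TTTGAA). Such a window was found for 7 of the 9 genes, all but Has2 and Tmem2. For each gene shown, bases that lie before its start in both RefSeq and GENCODE are printed, 250 at most, with the matches wholly inside them in capitals. Positions count from the RefSeq start, and motifs can overlap. For Tnfaip6 and Has1 the RefSeq start lies downstream of the GENCODE start, and for Hmmr, Ptx3 and Itih5 upstream of it. Matches given below across or after the RefSeq start of Hmmr, Ptx3 and Itih5 thus lie before the GENCODE start. Tnfaip6 had 1 AP-1 match at position -142, 2 CCAAT boxes (1 of them at -81, beyond the printed bases) and 1 GC box, and it was the only one of the 7 with an AP-1 match. Over all 32851 windows of this length, 7.81% held an AP-1 match, 37.4% a CCAAT box and 35.7% a GC box. A match describes letters and not a bound site.

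The pattern of Tnfaip6 over the 5 libraries was most like that of Slc9a3r2, with a Pearson r of 0.999 on log2 values, followed by Ociad1, Spata6, Atp6v0b and Mif4gd, with r of 0.997, 0.997, 0.997 and 0.996. These 5 genes shared the order of Tnfaip6, with wild-type C1 highest, then wild-type SE, knockout C2, knockout C1 and knockout SE. Since they were picked for this likeness, the shared order is no separate result. Slc9a3r2, Spata6 and Mif4gd were not called (log2 fold changes -0.40, -0.34 and -0.50, limma adjusted p = 0.261, 0.282 and 0.206). Ociad1 and Atp6v0b were called lower (log2 fold change -1.01 for each, limma adjusted p = 0.0340 and 0.0409). Of the 10205 genes compared, 242 had r over 0.95, and all share the same libraries and depths. Of the other members, Hyal2 was the most alike (r = 0.923) and Itih5 and Ptx3 ran opposite (r = -0.851 for each).

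The 2 hyaluronan synthases of the set behaved differently. Has1 (ENSMUSG00000003665, chromosome 17, 17843323 to 17855205, minus strand) stood at 58.1 and 52.7 normalised counts in the wild-type libraries C1 and SE. In the knockout it was at 0 in C1, at 0.0378 in C2 and at 0 in SE, so that a single knockout read stood against 2452 wild-type reads. The ratio of read rates was 3438, with an exact 95% counting interval from 616 to 135829. The gene was called lower (log2 fold change -6.77, SE 0.27, limma adjusted p = 5.28e-05), the 26th lowest fold change of the 12484, although the fitted value of a gene at 0 moves with the pseudocount.

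Has2 (ENSMUSG00000022367, chromosome 15, 56665627 to 56694539, minus strand), the synthase best known from embryonic heart and cumulus matrix, was read at a low level in both genotypes. Normalised counts were 9.57 and 9.01 in wild-type C1 and SE, and 7.34, 11.7 and 5.95 in knockout C1, C2 and SE. The wild-type values lay inside the knockout range. The log2 fold change was -0.20 with a 95% interval from -1.07 to 0.66 (limma adjusted p = 0.701), so a 2-fold fall lay within the interval. An antisense gene, Has2os, shares 182 exonic bases with Has2, and since the counting is not stated to use strand, their reads cannot be told apart there.

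Levels per kilobase of exon were taken over the union of exons of all annotated transcripts, so comparisons between genes depend on the annotation. On this scale Has1 stood at 12.3 ± 0.84 normalised counts in the wild type and Has2 at 2.19 ± 0.09. In the knockout the order was reversed, with 0.00279 ± 0.0048 for Has1 and 1.96 ± 0.70 for Has2. Has1 made up 85.1% and 84.6% of the summed level of both synthases in the wild-type libraries, and 0%, 0.304% and 0% in knockout C1, C2 and SE. The sum itself was 15.1 and 13.8 per kilobase in the wild type and 1.73, 2.76 and 1.40 in the knockout. The summed level was lower in every knockout library, where nearly all of it was Has2. This fall and that of the share came with Has1, which passed the filter through the wild type alone and so had to differ. They are therefore no separate result on the synthases, and Has2 was not called. Has3 was not analysed here.

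The sequence before Has1 is shown because this gene went from a moderate level to almost no reads (RefSeq, GRCm38.p6, chr17:17855206-17855438, minus strand, 5′ to 3′, capitals as above).
Has1: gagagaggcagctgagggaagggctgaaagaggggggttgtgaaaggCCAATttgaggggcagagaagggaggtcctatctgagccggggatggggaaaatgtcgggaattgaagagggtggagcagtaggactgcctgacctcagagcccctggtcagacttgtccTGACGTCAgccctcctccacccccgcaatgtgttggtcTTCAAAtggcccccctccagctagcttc
It held 1 CRE match at position -83, 1 CCAAT box and 1 CHR match. A CRE was present in 1.79% of all windows and a CHR in 17.9%, and no other of the 7 members had a CRE match.

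Genes that supply the sugar precursors were mostly not called. Of 10 genes for synthesis, the synthases included, 9 were tested, 1 was higher and 1, Has1, lower, with a median log2 fold change of -0.30 against -0.09 over all genes tested. Gfpt2, an isoform of the enzyme that opens the hexosamine pathway, was the one that rose, from 1.75 ± 0.46 to 8.19 ± 0.74. Gnpnat1, a later enzyme of that pathway, had 60.6 ± 12.2 and 33.0 ± 8.7 and did not pass (limma adjusted p = 0.061). Ugdh, which makes the glucuronic acid precursor, had 499 ± 68.4 and 365 ± 87.9 (limma adjusted p = 0.236).

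Both hyaluronan receptors of the set fell. Cd44 (ENSMUSG00000005087, chromosome 2, 102811141 to 102901665, minus strand), the main surface receptor and a common marker of mesenchymal stem cells, stood at 385 and 325 normalised counts in wild-type C1 and SE. Knockout C1, C2 and SE stood at 40.5, 28.6 and 38.5. Every knockout library was far below both wild-type libraries, and the means differed 9.89-fold, between 8.98-fold and 10.7-fold without single libraries. The log2 fold change was -3.30 (SE 0.25, limma adjusted p = 0.000254), and 4.95% of all genes tested had a larger absolute change. The annotation lists 9 transcripts of Cd44, which is known for variable exons, and a count over the whole gene does not separate them.

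Hmmr (ENSMUSG00000020330, chromosome 11, 40701395 to 40733422, minus strand) encodes RHAMM, which binds hyaluronan outside the cell and spindle microtubules inside it during mitosis. Its normalised counts were 249.7 and 254 in wild-type C1 and SE. They were 118, 67.2 and 82.0 in knockout C1, C2 and SE. The wild-type libraries were close to each other, and every knockout library lay below them, with a 2.83-fold difference of means (log2 fold change -1.54, SE 0.28, limma adjusted p = 0.00766). The interval of the log2 fold change ran from -2.21 to -0.86.

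Mitosis genes were lower beside Hmmr. Of 12 such genes, 10 were called lower and 0 higher, with a median log2 fold change of -1.41, close to that of Hmmr, and their summed normalised counts ran from 2403 to 2825 in the wild type and from 882 to 1456 in the knockout. Top2a, which untangles DNA, fell 3.23-fold, the mitotic kinase gene Aurkb 3.69-fold, Ccna2, which encodes cyclin A2, 3.29-fold and Plk1, another mitotic kinase gene, 3.21-fold. Tpx2, a spindle protein known to bind RHAMM, fell 1.83-fold (limma adjusted p = 0.0417) and was picked once its values were known. In the knockout, Hmmr was highest in C1, as were Ccna2, Aurkb, Plk1 and Top2a, whereas Mki67 and Kif11 were highest in SE. Mki67 and Cdk1 were not called (limma adjusted p = 0.156 and 0.167). Mki67, Kif11 and Cdk1 were named after their values were seen. The part of the mitosis genes in the change of Hmmr was not tested.

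The promoter of Hmmr is shown because it carried several CCAAT boxes, an element common in promoters of mitosis genes (RefSeq, GRCm38.p6, chr11:40733438-40733687, minus strand, 5′ to 3′, capitals as above).
Hmmr: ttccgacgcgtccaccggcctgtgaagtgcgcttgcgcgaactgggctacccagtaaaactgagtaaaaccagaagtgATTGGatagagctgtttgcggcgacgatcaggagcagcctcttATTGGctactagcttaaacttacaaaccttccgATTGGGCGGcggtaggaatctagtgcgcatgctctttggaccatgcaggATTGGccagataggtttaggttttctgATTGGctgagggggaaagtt
It held 5 CCAAT boxes, all on the opposite strand and so printed as ATTGG, at positions -172, -129, -96, -47 and -20. The box at -96 overlapped a GC box. At least 5 such boxes were present in 0.271% of the 32851 windows. A CHR match began at position 9 after the RefSeq start, and 6.95% of windows held both a CCAAT box and a CHR. The Cd44 window, by contrast, held a GC box and no other match.

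Per kilobase of exon, Cd44 and Hmmr were at similar levels in the wild type (52.3 ± 6.26 and 46.4 ± 0.62) and at 5.29 ± 0.94 and 16.4 ± 4.78 in the knockout. Cd44 thus held 55.3% and 50.6% of their summed level in the wild-type libraries and 21.6%, 25.4% and 27.3% in the knockout libraries. The shares did not overlap between genotypes.

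The wider receptor list moved in both directions. Of 8 genes, 6 were tested, 2 were higher and 3 lower (median log2 fold change -0.73), and the lower ones included the members Cd44 and Hmmr. Tlr2, a pattern receptor reported to sense hyaluronan fragments, rose 5.93-fold, from 6.89 ± 0.80 to 40.8 ± 7.37. Stab2, the scavenger receptor that clears hyaluronan in liver sinusoids, went from 8 to 227 reads and, like Itih5, passed the filter through the knockout alone, so that it had to differ. Layn, which encodes the receptor layilin and was picked once its values were known, fell 1.93-fold. Of 12 genes for CD44 partners and sheddases, 9 were tested and 1 was called, Ezr, a linker between CD44 and actin, which fell 2.28-fold. Mmp14, a protease that sheds CD44, had 340 ± 1.32 and 517 ± 109 (limma adjusted p = 0.131). Ank3 and Rdx, which also link CD44 to the cytoskeleton, were not called (limma adjusted p = 0.146 and 0.282).

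**Figure D2:**
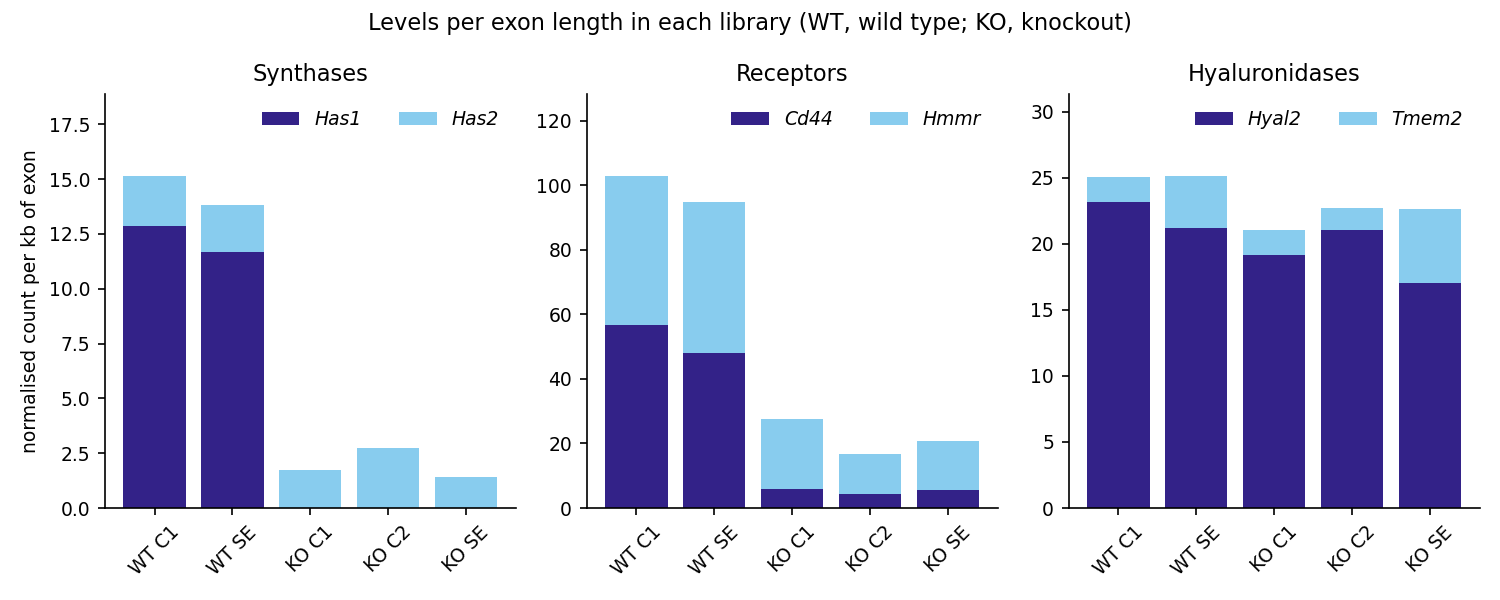
Stacked bars of the normalised count per kilobase of exon in each library for the synthases Has1 and Has2, the receptors Cd44 and Hmmr, and the surface hyaluronidases Hyal2 and Tmem2 (linear axes from 0, each panel with its own range). The synthase and receptor bars were lower in every knockout library, those of the synthases through Has1, which passed the filter through the wild type alone. The hyaluronidase bars were also lower in every knockout library, but by much less.

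The surface hyaluronidases were not called. Hyal2 (ENSMUSG00000010047, chromosome 9, 107567945 to 107572779, plus strand), a lipid-anchored enzyme that cuts long hyaluronan, had normalised counts of 76.3 and 69.7 in wild-type C1 and SE and of 63.1, 69.2 and 56.0 in knockout C1, C2 and SE. The groups did not overlap, but wild-type SE and knockout C2 were nearly equal. The log2 fold change was -0.22 with a 95% interval from -0.74 to 0.30 (limma adjusted p = 0.474).

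Tmem2 (ENSMUSG00000024754, chromosome 19, 21778342 to 21858360, plus strand, named Cemip2 in the annotation) encodes a transmembrane protein with hyaluronidase activity. Wild-type C1 and SE had normalised counts of 16.0 and 33.5, and the knockout libraries C1, C2 and SE had 16.2, 14.2 and 48.0. The SE library was the highest in each genotype, and the C libraries of both genotypes lay close together. Genotype gave a log2 fold change of -0.05 with a wide 95% interval, from -1.48 to 1.37 (limma adjusted p = 0.958). With the suffix as a block the estimate was 0.18 (limma adjusted p = 0.473), so its sign turned. An antisense gene shares 97 exonic bases with Tmem2.

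In that fit with genotype and suffix, Tmem2 was the only one of the 9 genes called between SE and C libraries, with a log2 fold change of 1.38 (SE 0.20, limma adjusted p = 0.00646). Over all genes tested, 32.8% were called between the suffixes, 17.4% higher and 15.5% lower in SE, so 1 of 9 was below that share. Wild-type SE exceeded wild-type C1 by 1.05 on the log2 scale, and knockout SE exceeded the mean of knockout C1 and C2 by 1.63. Tnfaip6 had a suffix estimate of -0.59 (limma adjusted p = 0.155) and Has2 one of -0.38 (limma adjusted p = 0.339). The interaction of genotype and suffix, fitted with 1 residual degree of freedom, passed for none of the 9 genes and for 0 of all genes tested (limma), with 0 of the 9 and 327 of all genes (2.62%) at an unadjusted p under 0.05.

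**Figure D3:**
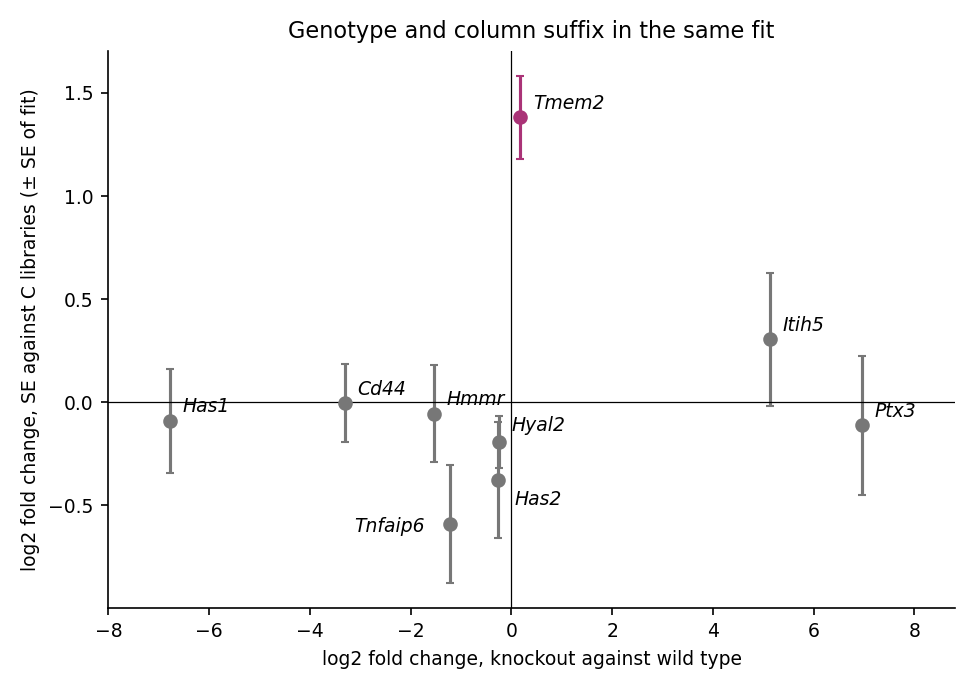
Log2 fold change between genotypes (x) and between SE and C libraries (y, with ± the standard error of the fit) for each of the 9 genes, both from the fit that holds genotype and suffix. Tmem2, in purple, stood at 1.38 on the suffix axis and near 0 on the genotype axis, and Has1, Cd44, Hmmr, Ptx3 and Itih5 stood near 0 on the suffix axis relative to their genotype change.

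Per kilobase of exon, Hyal2 was well above Tmem2 in both genotypes, at 22.2 ± 1.43 against 2.90 ± 1.46 in the wild type and at 19.1 ± 1.99 against 3.07 ± 2.23 in the knockout. Of 9 genes for hyaluronan breakdown, 7 were tested, 0 were higher and 1 was lower, with a median log2 fold change of -0.05. Cemip, a secreted hyaluronan-degrading relative of Tmem2, was the one that fell, with normalised counts of 12.0 and 27.3 in wild-type C1 and SE and of 1.83, 0.151 and 4.08 in knockout C1, C2 and SE (log2 fold change -3.29, limma adjusted p = 0.0235). Like Tmem2, Cemip was highest in the SE library of each genotype. Of the lysosomal enzymes that finish the breakdown, Gusb had 160 ± 29.2 and 103 ± 6.43 and Hexa 235 ± 50.6 and 396 ± 156, and neither was called (limma adjusted p = 0.0727 and 0.173).

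Among the proteins that build TSG-6 and heavy chains into the matrix, Ptx3 and Itih5 rose. Ptx3 (ENSMUSG00000027832, chromosome 3, 66219910 to 66225805, plus strand) stood at 4.82 and 2.59 normalised counts in wild-type C1 and SE and at 631, 344 and 612 in knockout C1, C2 and SE. The lowest knockout library was far above the highest wild-type library. The means differed 143-fold, between 110-fold and 204-fold without single libraries, with a log2 fold change of 6.98 (SE 0.37, limma adjusted p = 8.37e-05), the 12th highest of all genes tested. Within the suffixes, the log2 differences were 6.89 and 6.02 for knockout C1 and C2 and 7.63 for knockout SE. Ptx3 lies inside Veph1, a gene on the opposite strand, with no shared exonic base.

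Per kilobase of exon, Ptx3 was below Tnfaip6 in the wild type (1.38 ± 0.59 against 2.70 ± 1.17) and above it in the knockout (197 ± 59.9 against 1.05 ± 0.31). Ptx3 held 33.7% and 34.0% of the summed level of this pair in the wild-type libraries, and 99.6%, 98.9% and 99.7% in the knockout libraries.

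Sequence before Ptx3 is shown because, like Tnfaip6, it is known as a gene that tumour necrosis factor and interleukin-1 induce, while its value moved the other way (RefSeq, GRCm38.p6, chr3:66219637-66219886, plus strand, 5′ to 3′).
Ptx3: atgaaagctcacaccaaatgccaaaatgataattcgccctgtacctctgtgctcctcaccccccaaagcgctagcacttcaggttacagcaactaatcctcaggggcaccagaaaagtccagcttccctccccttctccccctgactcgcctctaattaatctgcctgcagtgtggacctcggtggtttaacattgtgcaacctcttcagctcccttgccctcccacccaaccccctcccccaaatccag
No match of the 7 motifs lay wholly in these bases. A stretch across the RefSeq start, chr3:66219886-66219896, held 2 overlapping matches to the NF-kB consensus.
NF-kB stretch: GGGGAACTCCC
The consensus was present in 8.46% of all windows. Of the 7 members, Hyal2 also had a match, and Tnfaip6 had none in its window.

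Itih5 (ENSMUSG00000025780, chromosome 2, 10153571 to 10256529, plus strand) belongs to the heavy chain family of inter-alpha-trypsin inhibitor. No wild-type library had a read, and the normalised counts were 11.1, 18.9 and 21.2 in knockout C1, C2 and SE, from 236, 499 and 296 reads. At a floor of 3 reads in each wild-type library, a mean of 0.138, the knockout was at least 123-fold higher. The gene was called higher (limma adjusted p = 0.000219), and its fitted log2 fold change of 5.08 depends on the pseudocount. Per kilobase, its knockout level of 2.16 ± 0.67 was near that of Has2 and far below that of Ptx3.

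The sequence before Itih5 is shown because this gene had no read in the wild type (RefSeq, GRCm38.p6, chr2:10153293-10153542, plus strand, 5′ to 3′, capitals as above).
Itih5: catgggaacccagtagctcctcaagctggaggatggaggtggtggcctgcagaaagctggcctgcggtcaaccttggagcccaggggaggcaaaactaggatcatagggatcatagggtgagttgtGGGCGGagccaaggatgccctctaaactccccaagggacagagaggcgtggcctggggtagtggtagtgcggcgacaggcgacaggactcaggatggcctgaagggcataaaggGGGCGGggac
It held 3 GC boxes, at positions -124, -10 and 7, the last of them after the RefSeq start and so not printed. At least 3 were present in 10.7% of all windows. None of the other motifs matched, and TATAAA was found in none of the 7 members with a window, against 13.6% of all windows.

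**Figure D4:**
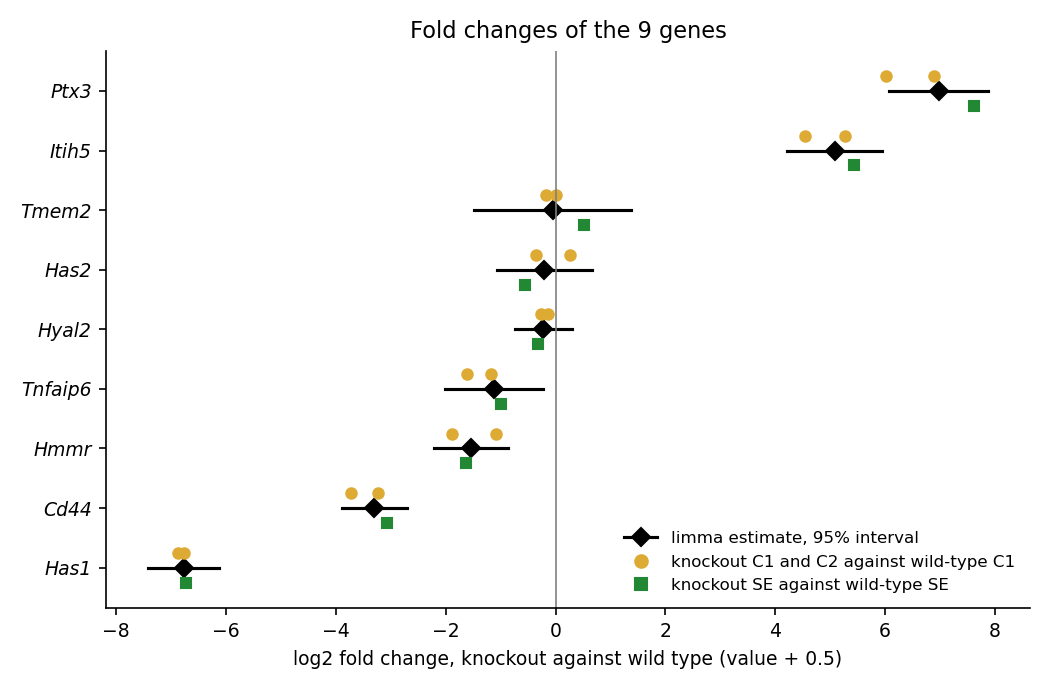
Log2 fold change between knockout and wild type on the value plus 0.5 for each gene, as the limma estimate with its 95% interval (black), as knockout C1 and C2 against wild-type C1 (yellow) and as knockout SE against wild-type SE (green). For Has1, Cd44, Hmmr, Tnfaip6, Hyal2, Itih5 and Ptx3 all 3 single comparisons lay on the same side of 0, whereas those of Has2 and Tmem2 lay on both sides.

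Related matrix genes changed as well. Of the 6 genes of the inter-alpha-trypsin inhibitor family, 2 were tested and both were called higher, Itih5, which passed the filter through the knockout alone, and Itih2, a heavy chain gene that went from 7.95 ± 0.62 to 56.6 ± 4.13 (7.11-fold, limma adjusted p = 0.000437). Ambp, which encodes the light chain bikunin, was not analysed here. Of 6 pentraxin genes 3 were tested: Ptx3 rose, while Nptx1, a neuronal pentraxin, went from 90 reads to 0, passing the filter through the wild type alone, and Nptxr, the neuronal pentraxin receptor, fell 5.35-fold (limma adjusted p = 0.0454). Of 11 hyaluronan-binding matrix proteins, 5 were tested, 0 were higher and 2 lower, and both were link proteins. Hapln4 fell 17.6-fold, from 25.2 ± 7.15 to 1.43 ± 0.56, and Hapln1 went from 157 reads to 0 and passed the filter through the wild type alone, so that it had to differ. The proteoglycan gene Vcan, a major partner of hyaluronan, had 74.5 ± 9.09 and 46.0 ± 15.8 and was not called (limma adjusted p = 0.124).

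Reported protein partners of TSG-6 included large changes in both directions. Of 13 genes, 9 were tested, 2 were higher and 1 lower (median log2 fold change 0.70). Cxcl12, a chemokine of the marrow niche, rose 99.5-fold, from 117 ± 3.70 to 11679.6 ± 3099, and Ptx3 was the other that rose. Bmp2, a bone-inducing growth factor, fell from 191 ± 26.2 to 0.107 ± 0.060, the latter from 6 reads, and passed the filter through the wild type alone. Ccl7, a monocyte chemokine, had 161 ± 110 and 368 ± 82.5 and did not pass (limma adjusted p = 0.0602).

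Genes of the pathway that induces TSG-6 were called in both directions. Of 18 genes of the TNF, IL-1 and NF-kB pathway, 15 were tested, 3 were higher and 3 lower (median log2 fold change -0.13). Over all genes tested, 34.3% were called. Tnfaip3, an inhibitor of NF-kB that is itself induced by it, rose 10.6-fold, from 4.13 ± 1.77 to 43.8 ± 23.5. Tnfrsf1a, the main TNF receptor, rose 1.90-fold. Nfkb2 and Relb, which encode subunits of the alternative NF-kB dimer, fell 5.38-fold and 2.39-fold. Tnfrsf1b rose 2.11-fold and Traf2, a TNF receptor adaptor, fell 1.66-fold, and both were named after their values were seen.

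Beyond the 9 members, 66 genes of these 10 lists were tested, of which 8 were higher and 21 lower. Over all genes tested, 17.2% were higher and 17.1% lower. The median log2 fold change was -0.44 against -0.09 over all genes tested. The lists were chosen with earlier results of these data known. Among the lower genes, 10 were the mitosis genes.

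**Figure D5:**
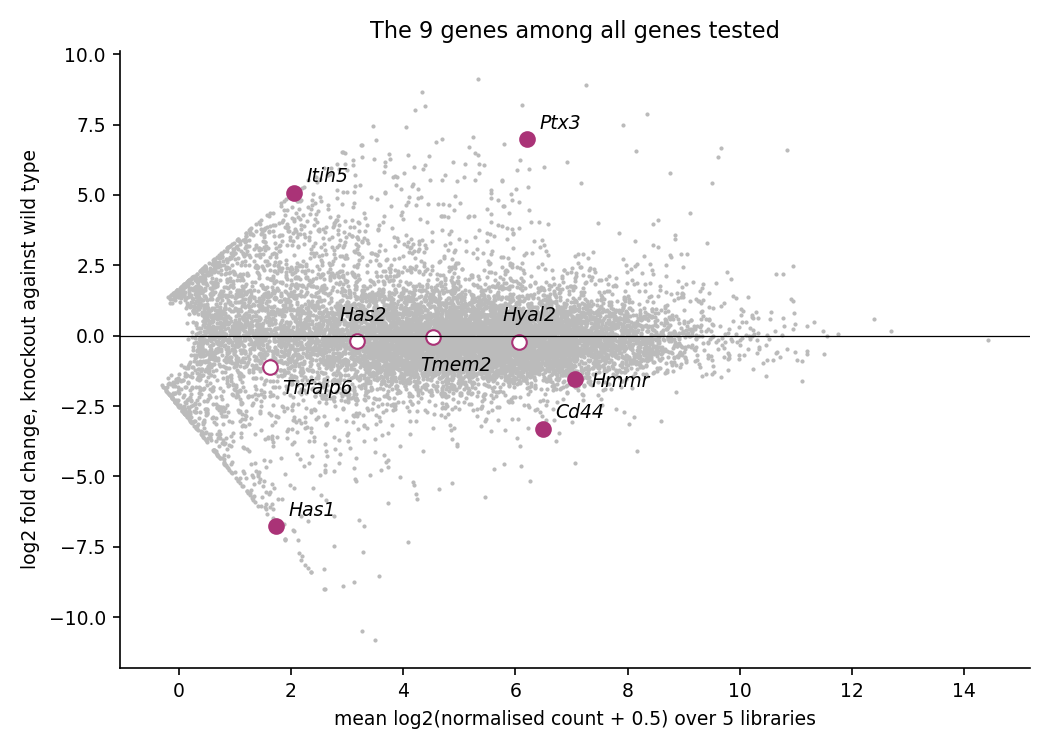
Log2 fold change between knockout and wild type (y) against the mean log2 of the normalised count plus 0.5 over 5 libraries (x) for all 12484 genes tested in grey, with the 9 genes in purple, filled where the adjusted p was under 0.05. Ptx3 and Has1 lay near the edges of the cloud, where 0.264% and 0.344% of genes had a larger absolute change, and Has2, Hyal2 and Tmem2 lay within its centre.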

How the data were processed

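Stranded poly(A) libraries were read from 1 end over 75 bp, per the labels' protocols. The submitters' processing notes name STAR 2.5, featureCounts 1.5.2 and edgeR, and the genome build, annotation and strand setting are not given in the sources used here. The deposited values are a signal, gene read counts that the authors scaled by library size to about CPM. They summed to between 931660 and 1052926 per library, so the library sizes used were not the plain read totals. Each value was a whole multiple of 1 read's value (100% of values within 0.02 of a read), and reads were recovered from these steps. Counting intervals and floors cover counting error only.

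Limma 3.58.1 (R 4.3.3, eBayes with a trend) was fitted to log2(value + 0.5) over 12484 genes with at least 1 in at least 2 libraries, with 3 residual degrees of freedom. Fold changes on this scale understate changes of low genes, and folds are ratios of group means. Alternatives were edgeR 4.0.16 and DESeq2 1.42.0 on recovered reads, other scalings, pseudocounts (0.1 and 1) and filters (none and 5), eBayes without a trend and robust, a suffix block, and libraries left out. Tests were checked on simulated independent counts of 1 common spread, without a suffix effect or shared replicates. That check therefore does not cover these features of the real libraries. Libraries of a group differed beyond counting noise (chi-square per degree of freedom from 62.9, between knockout C1 and C2, to 222). Each library was counted as a sample, although knockout libraries may share a biological replicate. Coordinates and exon lengths are those of GENCODE M21 (GRCm38), in which 12607 of 12621 Ensembl identifiers were found, and promoters from RefSeq (GRCm38.p6). The members and lists were chosen with earlier results of these data known. All members, up to 4 genes per list by smallest p, and the 5 genes most like Tnfaip6 by Pearson r with a mean of at least 5 were named, and a gene that the rule took is not reported here. The calculations also used Python 3.11.15.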

Additional observations from a re-analysis of the deposited data

How the results depend on the processing

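No paired analysis was possible because the column names do not carry the titles' replicate numbers, and whether libraries that share a suffix are pairs is not stated. A fit with the suffix as a block was made in its place, and it changed the call of Tnfaip6. The calls of Cd44, Hmmr and Ptx3 held in each of 18 alternatives. Those of Itih5, in 18, and of Has1, in the 15 in which it was tested, also held. Itih5 passed the filter through the knockout alone and Has1 through the wild type alone, so both had to differ. Without either wild-type library, or without both SE libraries, Has1 reached 1 in a single library and left the filter, and at a filter of 5 Tnfaip6 did. In the alternatives that kept both wild-type libraries, 5 or 6 of the 9 genes were called. The share of all genes called also moved, from 34.3% in the main fit to 60.6% with the suffix block. Counts of members are therefore not comparable between settings. Tnfaip6 was lower in each of 17 alternatives, with an adjusted p between 0.00943 and 0.364, and was called with quantile normalization (log2 fold change -1.30), without a variance trend (-1.13), with the suffix block (-1.22) and without both SE libraries (-1.39). Its log2 fold change lay between -1.53 and -0.72 without single libraries, and the cause was not tested. Tmem2, never called, turned to a positive log2 fold change with quantile normalization (0.052), median-of-ratios scaling (0.0050), edgeR (0.079), DESeq2 (0.12) and the suffix block (0.18), and lay between -0.60 and 0.47 without single libraries. Over all genes, 4279 were called, against 7568 with the suffix block and from 1676 (without wild-type SE) to 4964 (without knockout SE) when single libraries were left out. These fits assume that a lone wild-type library varies like the knockout libraries. Without wild-type C1 the count was 1728 and without knockout C2 it was 2741. Tnfaip6 rested on 19 to 149 reads per library, so small differences between its libraries were not detectable at this depth.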

Other observations

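Genes around Tnfaip6 moved in both directions. Within 1 Mb of its start, 7 other genes were tested, of which 2 were higher and 2 lower in the knockout (limma adjusted p under 0.05; 57.1% called, against 34.3% of all genes tested), with a median log2 fold change of 0.16. Rif1, a DNA replication timing factor that starts 34823 bases downstream, had normalised counts of 49.1 and 70.4 in wild-type C1 and SE and of 19.1, 18.3 and 26.3 in knockout C1, C2 and SE (log2 fold change -1.47, SE 0.30, limma adjusted p = 0.0108). Fmnl2, a formin that elongates actin filaments, was lower (log2 fold change -2.25). Rbm43, an RNA-binding protein gene on the other side, was higher (log2 fold change 1.48). Nmi, an interferon-inducible gene between Rbm43 and Tnfaip6, had a log2 fold change of -0.02 (SE 0.53) and was not called. These neighbours were taken by distance alone.

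Around the other members the share of neighbours called in the same window lay both above and below 34.3%. None of 8 genes near Has1 was higher and 1 was lower, and their median log2 fold change was -0.26, against -6.77 for Has1. Of 8 genes near Ptx3, 0 were higher and 3 lower (median -0.47), against 6.98 for Ptx3. Near Cd44, 2 of 10 genes were higher and 3 lower, with a median of -0.57 and a range from -2.08 to 2.35. Near Itih5, 1 of 6 genes was higher and 0 lower (median -0.12), and that one was its family member Itih2 (log2 fold change 2.76). Near Hmmr, 0 of 4 genes were called, near Tmem2 2 of 5, near Hyal2 12 of 46 (26.1%), and the 1 gene tested near Has2 was higher.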
